A study of Mus musculus with 2 samples.

Results

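The 6 long noncoding RNA genes described here were followed through splenic dendritic cells: Malat1, Neat1, Gm15261, Gm32036, 9130019P16Rik and 4930469K13Rik. They are among the 32285 genes in the count tables and were taken by symbol, each matching 1 row in both libraries. They had been picked because earlier readings of the same cells showed them high in cells with few ribosomal protein transcripts, so that contrast is described here and tests nothing. The question put to them was whether they mark cells rich in nuclear RNA.

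The cells were live CD45.2+ CD11c+ spleen cells of naive female mice aged 4 months on a C57BL/6J background, enriched for CD11c with magnetic beads and then sorted by flow cytometry. Wild-type mice (WT, H2-Aa +/+) were compared with H2-Aa cit/cit mice. The citation (cit) allele is an ENU-induced splice mutation of the gene for the MHC class II α chain, carried in every cell of the mouse. Cells of 3 mice were pooled into 1 library per genotype, so differences between genotypes could not be set against differences between mice or between preparations, and no p-value is given. A molecule was counted as 1 unique molecular identifier (UMI), and levels are given as UMIs per 1000000 UMIs of the summed cells (CPM). Brackets hold exact 95% Poisson intervals for a level, exact conditional binomial intervals for a ratio and Clopper-Pearson intervals for a share, all covering counting error only.

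The WT library held 7814 cells and 51020804 UMIs, with a median of 5492 UMIs per cell. The H2-Aa cit/cit library held 11525 cells and 72652201 UMIs, with a median of 5633. H2-Aa itself was at 5409.7 CPM (5389.53 to 5429.92) in WT and at 66.2 CPM in H2-Aa cit/cit, as the labels would have it. The dendritic cell genes Itgax (199 and 224 CPM) and Flt3 (422 and 333 CPM) were present in both. The libraries shared 31 cell barcodes. Median ribosomal protein transcripts were 11.2% of a cell's UMIs in WT against 16.5% in H2-Aa cit/cit.

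Malat1 is an abundant RNA that stays in the nucleus at nuclear speckles, the sites where splicing factors gather. Neat1 is the scaffold of paraspeckles, nuclear bodies built around its long isoform. The other 4 genes are little studied transcripts read against protein-coding genes, most of which act in cell signalling. Elmo1 works with DOCK proteins to activate Rac, Chn2 (β-chimaerin) inactivates Rac, and Lcp2 (SLP-76) is a signalling adaptor of leukocytes. Ribosomal protein mRNAs are short, abundant and translated in the cytoplasm.

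On GRCm38 with GENCODE vM21, Malat1 (ENSMUSG00000092341) lies on the minus strand at chr19:5795690-5802672 and Neat1 (ENSMUSG00000092274) on the same strand at chr19:5824708-5845478, both annotated as lincRNA. Gm15261 (ENSMUSG00000087201, antisense) at chrX:169037674-169106536 lies wholly within Arhgap6 (chrX:168795099-169304435), and Gm32036 (ENSMUSG00000113313, antisense) at chr13:20445286-20473490 wholly within Elmo1 (chr13:20090596-20608353). 9130019P16Rik (ENSMUSG00000073067, processed transcript) at chr6:54269681-54430221 overlaps the end of Chn2 (chr6:54039554-54301810) over 20.01% of its length. It also overlaps Prr15 (2.72%) and Wipf3 (0.386%) on the opposite strand, which were not set against it here. On its own strand Gm15527 (chr6:54245742-54279076) overlaps 5.85% of it, its annotated 3′ end included. 4930469K13Rik (ENSMUSG00000085684) at chr11:33973961-34098554 spans Lcp2 (chr11:34046920-34092295), which covers 36.4% of it, and also overlaps Kcnip1 on its own strand over 15.4%. This gene goes against the label of a noncoding RNA in one annotation, being typed protein coding in GENCODE vM21 and lncRNA in RefSeq. All 4 are on the minus strand and their partners on the plus strand. The strand setting of the counting is not given in the sources used here, so UMIs from either strand of a pair cannot be told apart with certainty.

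Oligo(dT) starts the reads of this 3′ assay, so an annotated 3′ end shows where a read would be expected to begin only if the RNA carries a poly(A) tail there. The last 60 bases of the longest transcript of each member, and of the longest one with a signal where that differs, follow in transcript orientation, with the polyadenylation hexamer AATAAA in capitals.
Malat1-201 (chr19:5795690-5795749, minus): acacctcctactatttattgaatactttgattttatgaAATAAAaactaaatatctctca
Neat1-202, the short isoform (chr19:5842307-5842366, minus): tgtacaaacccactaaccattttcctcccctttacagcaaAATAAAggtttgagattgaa
Neat1-201, the long isoform (chr19:5824708-5824767, minus): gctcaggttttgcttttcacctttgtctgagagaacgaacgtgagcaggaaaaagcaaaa
Gm15261-201 (chrX:169037674-169037733, minus): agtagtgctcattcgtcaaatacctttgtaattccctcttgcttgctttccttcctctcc
Gm32036-201 (chr13:20445286-20445345, minus): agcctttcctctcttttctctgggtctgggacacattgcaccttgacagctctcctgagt
9130019P16Rik-202 (chr6:54269681-54269740, minus): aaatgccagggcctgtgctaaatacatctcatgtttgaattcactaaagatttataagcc
4930469K13Rik-201 (chr11:33973961-33974020, minus): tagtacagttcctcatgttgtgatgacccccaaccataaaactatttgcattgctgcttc
4930469K13Rik-202 (chr11:34091281-34091340, minus): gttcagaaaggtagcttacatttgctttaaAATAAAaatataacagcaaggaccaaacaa

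The hexamer stands in the main Malat1 transcript, the short Neat1 isoform and 1 of the 4930469K13Rik transcripts, and these letters are not in the windows of Gm15261-201, Gm32036-201 or 9130019P16Rik-202. Among 141515 annotated transcripts of at least 60 bases, 27.2% hold it in their last 60 bases. Oligo(dT) can also anneal to runs of A inside an RNA, and runs of at least 10 A occur in 7.19% of the transcripts. Gm15261 and Malat1 carry one each, shown here in capitals with 25 bases on either side, positions counted from the transcript start.
Gm15261-201, positions 574 to 633 of 2763: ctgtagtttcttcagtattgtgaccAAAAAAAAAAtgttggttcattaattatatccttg
Malat1-201, positions 6649 to 6710 of 6983: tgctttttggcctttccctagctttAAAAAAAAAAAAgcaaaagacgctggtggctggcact
The Malat1 run lies at the genome-encoded A-rich tract that forms the mature 3′ end of this RNA, next to the tRNA-like small RNA cut from it. Which of these positions the reads came from was not measured, since the deposited tables hold counts per gene.

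RefSeq promoter windows (GRCm38.p6, 250 bases before to 50 after the start) matched 4 of the 6 members. The CCAAT box, a common promoter element, was searched as CCAAT on both strands, and it is in 37.4% of 32851 such windows. 4930469K13Rik holds 3 copies, a number reached by 3.37% of windows, and Gm32036 holds 2, reached with more by 11.7%. Both are shown because the boxes cluster, with each box in capitals on whichever strand it stands.
4930469K13Rik (chr11:34098505-34098804, minus): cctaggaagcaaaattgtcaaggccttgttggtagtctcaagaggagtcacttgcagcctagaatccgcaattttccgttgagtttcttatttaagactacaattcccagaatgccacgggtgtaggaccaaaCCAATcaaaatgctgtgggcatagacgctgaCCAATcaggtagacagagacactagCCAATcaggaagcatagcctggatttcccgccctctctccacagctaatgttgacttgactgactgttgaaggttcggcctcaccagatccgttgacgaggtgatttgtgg
Gm32036 (chr13:20472920-20473219, minus): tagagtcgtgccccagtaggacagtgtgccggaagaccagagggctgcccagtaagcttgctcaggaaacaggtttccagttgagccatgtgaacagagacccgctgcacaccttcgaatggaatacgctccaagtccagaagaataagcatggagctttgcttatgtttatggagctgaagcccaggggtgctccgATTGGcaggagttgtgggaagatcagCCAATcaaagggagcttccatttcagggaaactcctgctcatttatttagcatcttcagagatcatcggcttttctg
The Gm32036 window lies wholly inside the GENCODE vM21 gene, whose start on the minus strand is chr13:20473490, so the annotations differ on where this gene starts. The windows of 9130019P16Rik and Malat1 hold 1 and 0 copies. A match is a string of letters and not a bound site.

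Across cells sorted by their ribosomal share, the nuclear pair and the antisense RNAs followed different courses. In WT, Malat1 was at 46084 CPM in cells under 5% ribosomal UMIs, peaked at 60902 CPM between 5 and 10%, and was at 24785 CPM between 15 and 20% and 1654 CPM at 30% or more. In H2-Aa cit/cit it was at 37411, 43073, 23495 and 5023 CPM in the same 4 bands. Over all cells Malat1 was therefore highest not in the lowest band but in the one above it, in both libraries. Mature DC, taken whole, were the class richest in it. Within them Malat1 was at 70946 CPM under 5% and 70600.4 between 5 and 10% in WT. In H2-Aa cit/cit it was at 66513 and 61466 CPM. Within other cDC2 it was at 30680 and 33644 CPM in WT, against 32809 and 30267 in H2-Aa cit/cit. The order of the first 2 bands thus differed between classes and libraries. Neat1 took the same shape, at 434, 509.9, 157 and 21.8 CPM in WT and at 299, 346, 177 and 37.9 CPM in H2-Aa cit/cit.

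The antisense RNAs had their highest level in the lowest band. Gm15261 was at 465 CPM under 5%, at 83.5 between 5 and 10%, at 74.3 between 15 and 20% and at 4.79 at 30% or more in WT. In H2-Aa cit/cit it was at 557, 211, 86.6 and 13.4 CPM. The mature class, low in these RNAs, made up 27.1% of WT cells under 5% and 58.8% of those between 5 and 10%, against 11.7% and 27.4% for H2-Aa cit/cit, and its part in these steps was not tested. Gm32036 ran from 183 to 3.19 CPM in WT and from 232 to 11.1 in H2-Aa cit/cit. 9130019P16Rik ran from 70.3 to 1.60 CPM and from 65.2 to 1.75. 4930469K13Rik ran from 77.2 to 1.06 CPM and from 85.7 to 4.67. At 30% or more in WT these last 3 genes rest on 2 to 6 UMIs each.

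**Figure D1:**
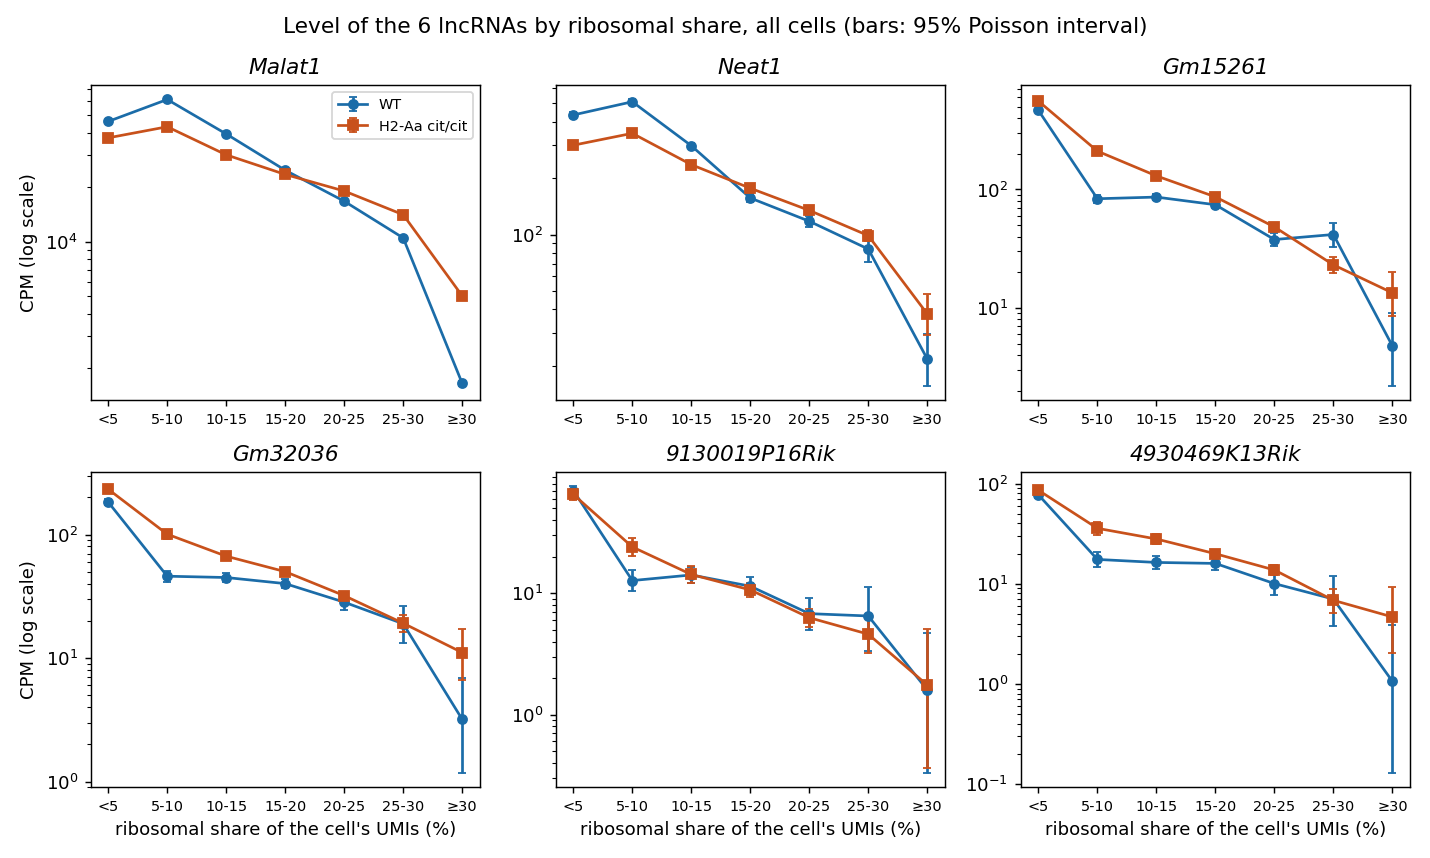
Level of each gene (CPM, log axis) in cells grouped by the percentage of their UMIs from ribosomal protein genes, one panel per gene, WT and H2-Aa cit/cit as separate lines with 95% Poisson bars. Malat1 and Neat1 peak between 5 and 10%, the 4 antisense RNAs are highest under 5%, and every gene is lowest at 30% or more.

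Taking cells under 10% as low and the rest as high left 3588 low cells (45.9%) in the WT library, against 3549 (30.8%) in the H2-Aa cit/cit library, with 507 and 420 cells lying between 9 and 11%. Low cells were shallower, with a median of 3540.5 against 7652 UMIs in WT and 2406 against 6869 in H2-Aa cit/cit. Gm15261 was at 280 CPM in low and 65.5 CPM in high WT cells, a log2 ratio of 2.09 (2.02 to 2.17), and at 385 and 70.5 CPM in H2-Aa cit/cit, a ratio of 2.45 (2.39 to 2.51). Malat1 was at 53284 and 26034 CPM in WT, a log2 ratio of 1.03 (1.03 to 1.04), and at 40226 and 21344 CPM in H2-Aa cit/cit, a ratio of 0.91 (0.91 to 0.92). Gm15261 therefore had a larger ratio than Malat1. Among cells of 1500 to 5000 UMIs, where depth is closer, the log2 ratio of Gm15261 was 3.87 in WT against 2.84 in H2-Aa cit/cit. That of Malat1 was 1.31 against 0.75. The bands of high cells also differ in depth. Median UMIs were 3795.5 at 30% or more and 7666.5 between 10 and 15% in WT, against 3247.5 and 6005.5 in H2-Aa cit/cit. The window can thus change the mix of high cells, and the part of this was not tested. Over cells of all depths Neat1 had log2 ratios of 1.35 (1.30 to 1.39) and 1.03 (0.97 to 1.08). The other three lay between 1.68 and 1.99 in WT and between 1.84 and 2.36 in H2-Aa cit/cit.

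At a minimum of 50 CPM in either group, 4 of the 6 members entered the WT table, and 5 that of H2-Aa cit/cit. 9130019P16Rik did not reach it in either library, nor 4930469K13Rik in WT. Of those entered, 4 were at least 2-fold higher in low cells in each library, where 14.3% of 4257 genes in WT and 14.3% of 4449 genes in H2-Aa cit/cit were. No member was 2-fold lower, against 15.8% and 15.2% of genes. Ribosomal protein genes, which set the split, were not left out of the shares and medians over all genes. Gm32036 in both libraries, and 4930469K13Rik in H2-Aa cit/cit, passed the minimum through the low cells alone. Since the members were picked on this contrast, nothing is read from the counts of members. The median gene had a log2 ratio of 0.43 in WT against 0.52 in H2-Aa cit/cit. Over UMIs outside ribosomal protein genes every log2 ratio is lower by 0.21 in the WT library and by 0.24 in the other. Malat1 is then at 0.82 in WT and Neat1 at 0.78 in H2-Aa cit/cit, both under 2-fold.

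The same direction held inside single classes of cells. Classes were set by marker genes: conventional type 2 dendritic cells (cDC2, divided into Ccr2+ cDC2 and other cDC2), cDC1, mature DC expressing Ccr7 and Fscn1, plasmacytoid DC (pDC), proliferating cells and small groups of other myeloid and NK cells. Each carried 2 to 8 of its own markers among its 10 leading genes, which follows from gating on those markers and does not test the names. In other cDC2, the largest class with 3093 WT and 6269 H2-Aa cit/cit cells, Gm15261 was at 632 CPM in low and 110.5 CPM in high cells in WT, and at 549 and 97.6 CPM in H2-Aa cit/cit. Gm32036 was at 232 and 55.8 CPM in WT and at 232 and 54.1 CPM in H2-Aa cit/cit. Malat1 differed less, at 31400.2 and 21408 CPM in WT and at 31824 and 19412 CPM in H2-Aa cit/cit. The markers of B, T, NK, plasma and erythroid cells each summed to under 40 CPM in low and in high other cDC2 of both libraries. The 6 monocyte markers, all detected, summed to 83.6 CPM in low and 177 CPM in high cells in WT and to 93.8 and 157 CPM in H2-Aa cit/cit, and Ccr2+ cDC2 markers to 74.7 and 196 CPM in WT and 130 and 243 CPM in H2-Aa cit/cit. Going the other way, mature DC markers summed to 241 and 189 CPM in WT and 160 and 126 CPM in H2-Aa cit/cit, and pDC markers to 88.0 and 54.3 and to 55.3 and 37.9 CPM. The part of any of these in the ratios was not tested.

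Of the classes with at least 20 low and 20 high cells, of which WT had 5 and H2-Aa cit/cit 6, Malat1 and Gm15261 had ratios with intervals above 0 in every class. The Malat1 log2 ratios ran from 0.55 to 1.25 in WT and from 0.71 to 1.15 in H2-Aa cit/cit, and those of Gm15261 from 1.13 to 3.19 and from 0.67 to 3.22. Over UMIs outside ribosomal protein genes the Malat1 ratios ran from 0.32 to 0.99 and from 0.46 to 0.87. The smallest Gm15261 ratio in each library was in mature DC and the largest in the mixed group of cells given no class. Neat1, Gm32036, 9130019P16Rik and 4930469K13Rik had intervals above 0 in all 5 WT classes, and in 5, 5, 4 and 4 of the 6 in H2-Aa cit/cit. The exceptions were pDC for each of the 4, mature DC for 9130019P16Rik and cDC1 for 4930469K13Rik. There H2-Aa cit/cit counts were 10 or fewer UMIs in the low cells, apart from the 30 of 9130019P16Rik in mature DC. The share of all genes with intervals above 0 is not given inside classes. Over all cells it was 64.4% in WT against 66.3% in H2-Aa cit/cit, so nothing is read from the counts of classes.

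The cells given no class (1183 in WT, 1952 in H2-Aa cit/cit) were led by the haemoglobin genes Hbb-bs and Hba-a1. The B, T, plasma and erythroid gates set no class, so this mixed group can hold cells that passed such a gate. The 6 erythroid markers together were at 8227 CPM in its low and 3564 CPM in its high cells in WT, and at 6132 and 53.9 CPM in H2-Aa cit/cit. All 6 were detected in the low cells of both libraries. Gm15261 was at 541 and 59.4 CPM in these low and high cells in WT and at 561 and 60.4 CPM in H2-Aa cit/cit. Markers of cDC2 summed there to 567 and 396 CPM in WT and to 553 and 361 CPM in H2-Aa cit/cit. Going the other way, Ccr2+ cDC2 markers summed to 36.0 and 203 and to 36.4 and 193 CPM, and cDC1 markers to 156 and 202 and to 117 and 126 CPM. The group was shallow, with medians of 2025 and 2223.5 UMIs per cell. The part of these in the Gm15261 levels was not tested. The part of erythroid RNA in these members' levels was not tested, while in other cDC2 the erythroid markers summed to 9.94 and 20.3 CPM in low and high WT cells and to 11.7 and 6.57 CPM in H2-Aa cit/cit.

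By class, with low and high cells together, Malat1 and Neat1 were highest in mature DC among the classes of at least 50 cells. Malat1 was at 59594 CPM in mature DC and 31931 CPM in cDC1 in WT, and at 45711 and 32568 CPM in H2-Aa cit/cit. Next in WT came pDC (24379 CPM) and other cDC2 (24024.5 CPM), whose intervals overlap, and then macrophages (21593), monocytes (17331), and proliferating cells (13646) and Ccr2+ cDC2 (13627), which again cannot be separated. In H2-Aa cit/cit macrophages (22068) and pDC (21736) overlapped and were followed by other cDC2 (20963), monocytes (19828), Ccr2+ cDC2 (14799) and proliferating cells (13379). Among these named classes, taken whole, the same 2 were therefore at the top, and the same 2 at the bottom, in both libraries. Low cells were 61.7% of mature DC and 13.9% of cDC1 in WT, against 46.2% and 7.15% in H2-Aa cit/cit. In low cells alone Malat1 was at 70718 CPM in mature DC and 68105 in cDC1 (76 cells) in WT. In H2-Aa cit/cit the order was the other, at 62780 and 70193 CPM (45 cDC1 cells). High cells had 45202 and 28562 CPM in WT and 35588 and 31677 in H2-Aa cit/cit.

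Neat1 was at 516 CPM in mature DC and 374 CPM in monocytes in WT, and at 381 and 280 CPM in H2-Aa cit/cit. Proliferating cells had the least, at 87.5 and 95.4 CPM. In cDC1 Neat1 stood apart from Malat1, being near the bottom in WT at 129 CPM and near the middle in H2-Aa cit/cit at 206 CPM.

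The antisense RNAs had another order, low in mature DC and cDC1 and high in other cDC2. Gm15261 was at 247 CPM in other cDC2 of WT and 154 CPM of H2-Aa cit/cit, at 124 and 96.4 CPM in proliferating cells, at 47.9 and 57.9 CPM in mature DC and at 22.1 and 13.7 CPM in cDC1. Gm32036 was at 102 and 76.4 CPM in other cDC2 and at 21.4 and 18.5 CPM in cDC1. 9130019P16Rik was at 35.6 and 17.8 CPM in other cDC2 and at 8.15 and 8.97 CPM in mature DC. 4930469K13Rik was at 43.7 and 29.9 CPM in other cDC2 and at 7.22 and 9.33 CPM in mature DC. With low and high cells together, Gm15261 was thus over 10-fold lower in cDC1 than in other cDC2 in both libraries. In high cells alone it was at 18.6 CPM in cDC1 and 110.5 in other cDC2 in WT, and at 11.7 and 97.6 in H2-Aa cit/cit. Low cells had 59.6 and 632 CPM in WT and 96.2 and 549 in H2-Aa cit/cit, on 31 and 20 cDC1 UMIs. The wider spread of the other antisense RNAs in small classes leaves their lower order unresolved.

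**Figure D2:**
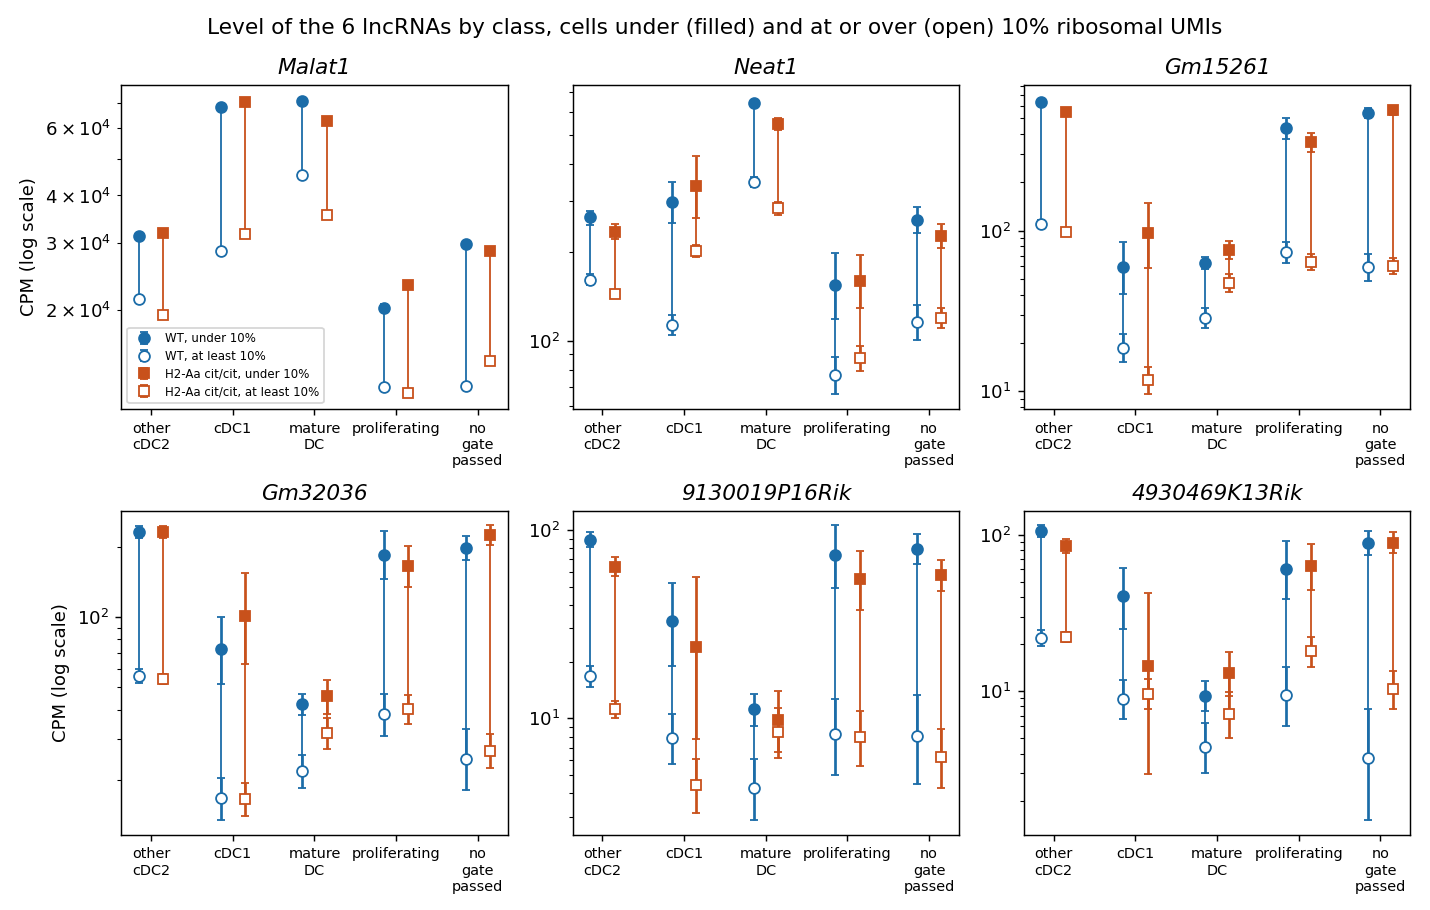
Level of each gene (CPM, log axis) in 5 groups of cells, filled points for cells under 10% ribosomal UMIs and open points for the rest, WT and H2-Aa cit/cit in separate colours with 95% Poisson bars. Malat1 and Neat1 are lower in low-ribosomal other cDC2 than in low-ribosomal mature DC (31400.2 against 70718 CPM for Malat1 in WT), and Gm15261 is the other way round (632 against 62.8 CPM).

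Because low cells are shallow, each cell was also thinned to 1500 UMIs, which kept 7080 WT and 10567 H2-Aa cit/cit cells and left out 734 and 958 shallower ones. At this depth Gm15261 was seen in 44.5% of low and 14.2% of high other cDC2 in WT, and in 40.0% and 11.4% in H2-Aa cit/cit. Over all other cDC2 it was seen in 27.6% and 18.6% of cells (46.1% and 37.3% unthinned, at median depths of 5462 and 5882 UMIs). In cDC1, the large class with least of it, it was seen in 3.90% and 2.25% (12.6% and 12.7% unthinned, at 9733 and 14532 UMIs).

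Cells with 30% or more ribosomal UMIs were at the other end. In thinned cells Malat1 was seen in 88.7% of those of the WT library (85.2 to 91.6) and 88.6% of those of the H2-Aa cit/cit library, where it was 99.9% and 100% of cells under 5%. Xist, which coats the inactive X chromosome in the nucleus of female cells, was seen in 1.93% (0.84 to 3.76) of these cells in WT and 19.5% of the H2-Aa cit/cit ones, where it was 87.9% and 93.3% of cells under 5%. Gm15261 was seen in 0.72% and 1.08%. Free RNA in droplets also gives UMIs of an RNA this abundant, and its part in the Malat1 share was not tested. In WT this band was 35.5% cDC1, and within cDC1 Malat1 went from 65790 CPM under 5% to 1287 CPM in the 150 cells at 30% or more.

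Per cell, Malat1 took a median of 2.64% of the UMIs in WT against 2.11% in H2-Aa cit/cit, and no Malat1 UMI was found in 4 and 8 cells. Its share ran against the ribosomal share with a Spearman coefficient of -0.52 over 7814 WT cells and -0.51 over 11525 H2-Aa cit/cit cells. Within classes the coefficient was -0.42 and -0.49 in other cDC2 and -0.39 and -0.59 in mature DC, and it was weakest in monocytes at -0.21 and -0.18. It reached -0.83 in WT cDC1 against -0.49 in H2-Aa cit/cit cDC1. All cells of a library share its preparation, and both shares have the same denominator. Against UMIs outside ribosomal protein genes the coefficient over all cells was -0.44 and -0.41.

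Genes listed for what they are known to do were read beside the members. Of 7 other nucleus-enriched lncRNAs, 2 passed 50 CPM, and both were higher in low cells. Xist had a log2 ratio of 0.75 in WT against 1.01 in H2-Aa cit/cit. Kcnq1ot1, which silences an imprinted cluster, had 0.68 and 0.71. Inside mature DC the Xist ratio was 0.31 and 0.19, where Malat1 was at 0.65 and 0.82. Inside other cDC2 the Xist ratio was 1.08 and 1.12, where Malat1 was at 0.55 and 0.71. The exported spliced lncRNAs, mostly hosts of small nucleolar RNAs, went the other way in each of the 3 WT and 4 H2-Aa cit/cit genes that passed of 8. Their median log2 ratios were -0.85 and -1.17. Gas5 was at 202 CPM in low and 360 CPM in high WT cells. The intervals of these genes that passed lay above 0 for both retained RNAs and below 0 for all the exported ones. Where these RNAs lay in the cell was not measured, and the part of location in their ratios was not tested. Over all genes tested, intervals lay above 0 for 64.4% in WT against 66.3% in H2-Aa cit/cit, and below 0 for 31.3% and 29.1%.

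The 10 abundant cytoplasmic mRNAs had median log2 ratios of -1.39 and -1.47, and 8 and 9 of the 10 were at least 2-fold lower in low cells. B2m was the least lowered, at -0.23 and -0.61. The proteins that build the bodies of Neat1 and Malat1 are made from mRNAs of their own. The 11 paraspeckle protein genes that passed, of 12, had median log2 ratios of 0.15 and 0.34, 6 and 8 of them with intervals above 0, with Hnrnpk at -0.90 and -0.81, Nudt21 at -0.999 and -0.74 and Pspc1 at 0.72 and 0.93, and the 10 nuclear speckle protein genes had medians of -0.14 and 0.02. Over UMIs outside ribosomal protein genes the medians were -0.07 and 0.10 for paraspeckle and -0.36 and -0.23 for nuclear speckle protein genes, so the sign turns for the first list in WT and for the second in H2-Aa cit/cit. None of either list reached 2-fold, and no median or count of these lists was tested.

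Mitochondrial transcripts, which lie outside the nucleus, did not go with the cytoplasmic mRNAs. The 11 mitochondrial genes that passed, of 13, had median log2 ratios of 0.08 in WT against 0.67 in H2-Aa cit/cit, or -0.14 and 0.43 over UMIs outside ribosomal protein genes. Median mitochondrial shares in other cDC2 were 2.16% in low and 1.52% in high cells in WT and 2.98% and 1.57% in H2-Aa cit/cit. In mature DC they were lower in low cells, at 1.08% against 1.41% and 1.22% against 1.46%. The first 20 genes of the study's list for its Wdfy4-high cells, a list chosen on these cells that holds Gm15261, had medians of 0.86 and 1.10. Wdfy4, needed for cross-presentation in cDC1, was itself at 0.27 and 0.71, where the median gene was at 0.43 and 0.52.

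The length of a gene went with its ratio over all genes that passed. Genes spanning over 300 kb had median log2 ratios of 0.88 and 1.004, and those under 10 kb -1.23 and -1.27. Ribosomal protein genes, whose UMIs set the split, were not left out of these groups, and their part was not tested. The members span from 6983 bases (Malat1) to 160541 (9130019P16Rik), so Malat1 is in the shorter group, whose median has the other sign, and none is in the longer. Genes annotated as antisense that passed 50 CPM had medians of 1.46 (37 genes) and 1.70 (44 genes), Gm15261 and Gm32036 among them. Gm32036 passed through the low cells alone, at 116 against 36.2 CPM in WT and 167 against 41.6 CPM in H2-Aa cit/cit. A minimum in either group lets scarce RNAs in this way, so nothing is read from these medians. Genes over 100 kb gave 38.0% of UMIs in WT cells under 5% and 5.07% in those at 30% or more, and 36.8% and 8.70% in H2-Aa cit/cit. The antisense RNAs are spliced over long spans, as with Gm15261-201, whose 4 exons make 2763 bases of a gene of 68863. Whether unspliced reads were counted is not given in the sources used here.

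Each antisense RNA was set against the gene on the other strand, as its percentage of the pair's UMIs. Gm15261 made up 37.7% (36.8 to 38.6) of the UMIs of Gm15261 and Arhgap6 in WT cells under 5% ribosomal UMIs and 16.96% (15.1 to 19.0) between 20 and 25%. In H2-Aa cit/cit the same shares were 40.3% and 19.4%. Between 25 and 30% the WT share was 25.9% (21.0 to 31.3), on 77 Gm15261 UMIs. The antisense part of the pair was thus larger in the lowest band, although Arhgap6 was also higher in low cells, by log2 ratios of 0.94 and 1.25. For 9130019P16Rik and Chn2 the shares went from 7.61% to 3.02% in WT and from 5.36% to 1.87% in H2-Aa cit/cit. For Gm32036 and Elmo1 they went from 5.38% to 2.95% and from 6.24% to 2.97%. For 4930469K13Rik and Lcp2 they went from 25.2% to 6.97% and from 22.6% to 7.91%, and Lcp2 had the smallest ratio of the 4 sense genes at 0.24 and 0.50.

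The shares differed alike within one class. In other cDC2, Gm15261 made up 35.8% of its pair in low and 18.9% in high cells in WT, and 37.1% and 20.7% in H2-Aa cit/cit. 4930469K13Rik made up 23.8% and 8.93% in WT and 19.3% and 8.93% in H2-Aa cit/cit. The other pairs also had the larger share in low other cDC2 of both libraries. Mature DC, cDC1 and proliferating cells had the larger share in low cells too, apart from these cases in H2-Aa cit/cit. In mature DC 9130019P16Rik made up 3.38% (2.29 to 4.79) in low and 3.96% (2.89 to 5.28) in high cells. In cDC1 4930469K13Rik made up 8.33% in low cells, on 3 UMIs, and 8.99% in high cells.

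**Figure D3:**
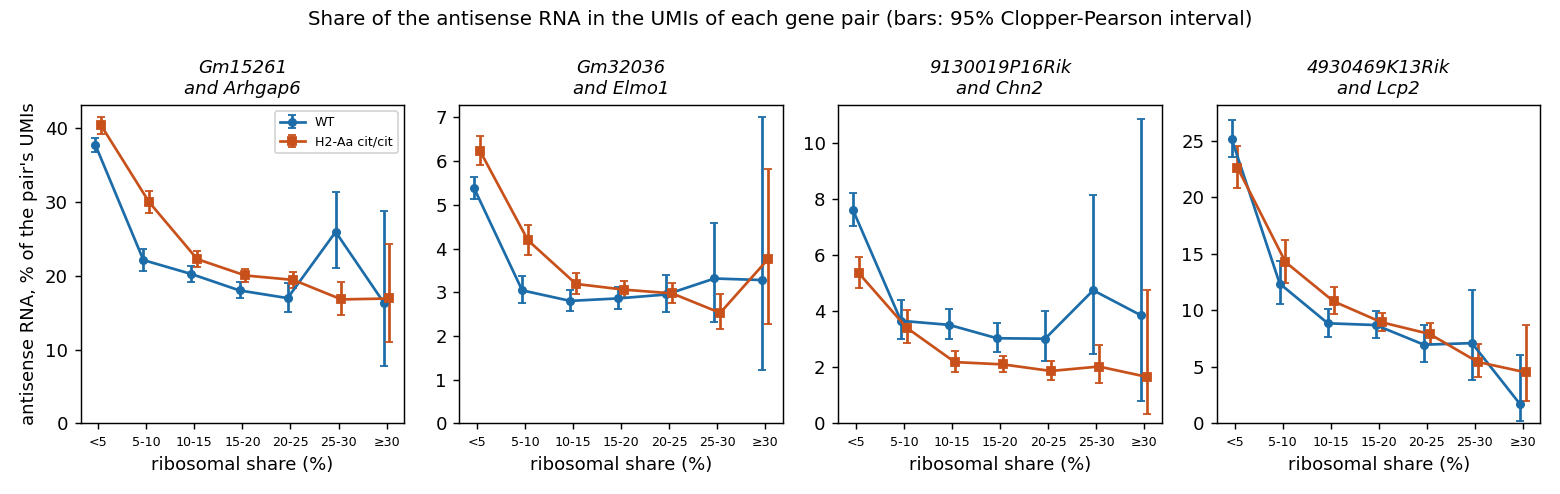
Percentage of each pair's UMIs that were assigned to the antisense RNA, by ribosomal share of the cells, one panel per pair, WT and H2-Aa cit/cit as separate lines with 95% Clopper-Pearson bars. All 4 pairs have a higher share under 5% than between 20 and 25% (37.7% against 16.96% for Gm15261 with Arhgap6 in WT), and the bars widen in the last 2 bands where few UMIs remain.

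Cell by cell, Gm15261 and Arhgap6 were found together. Among other cDC2 under 5% ribosomal UMIs, thinned to 1500 UMIs, the 527 WT cells with Gm15261 had 2.51 Arhgap6 UMIs per cell and the 574 without it had 1.03, a log2 ratio of 1.29 (1.15 to 1.43). In H2-Aa cit/cit the 461 cells with it had 2.34 and the 572 without it had 0.93, a log2 ratio of 1.34 (1.19 to 1.49). The other three sense genes differed between the same cells by log2 ratios of 0.04 to 0.17 in WT and -0.01 to 0.17 in H2-Aa cit/cit. Cells are not replicates, and the intervals count UMIs only.

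For 9130019P16Rik the Chn2 log2 ratio was 0.40 (0.23 to 0.57) in the WT cells, against 0.46 (0.28 to 0.64) in H2-Aa cit/cit, the highest of the 4 sense genes in each. In WT mature DC under 10% it was 1.52, below the 2.28 of another sense gene. For 4930469K13Rik the Lcp2 ratio was 0.24 (-0.09 to 0.55) and 0.53 (0.22 to 0.83), but it was -0.63 in H2-Aa cit/cit other cDC2 between 5 and 10%. For Gm32036 the Elmo1 ratio was 0.15 (0.08 to 0.22) and 0.20 (0.13 to 0.28), and it was not the highest in any H2-Aa cit/cit group of cells. In WT it was the highest only in this group and in mature DC at 10% or more. Outside this group of cells the Gm15261 and Arhgap6 ratio was the highest of the 4 except in WT mature DC at 10% or more. In mature DC under 10% it was 2.50 and 2.32, beside ratios of the other sense genes of up to 0.92 and 2.09. The own pair stood out less there only in H2-Aa cit/cit, where the 2.09 of Lcp2 rests on 16 and 33 UMIs. Overlap on opposite strands without a known strand setting was common to all of these pairs, and its part in them was not tested.

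**Figure D4:**
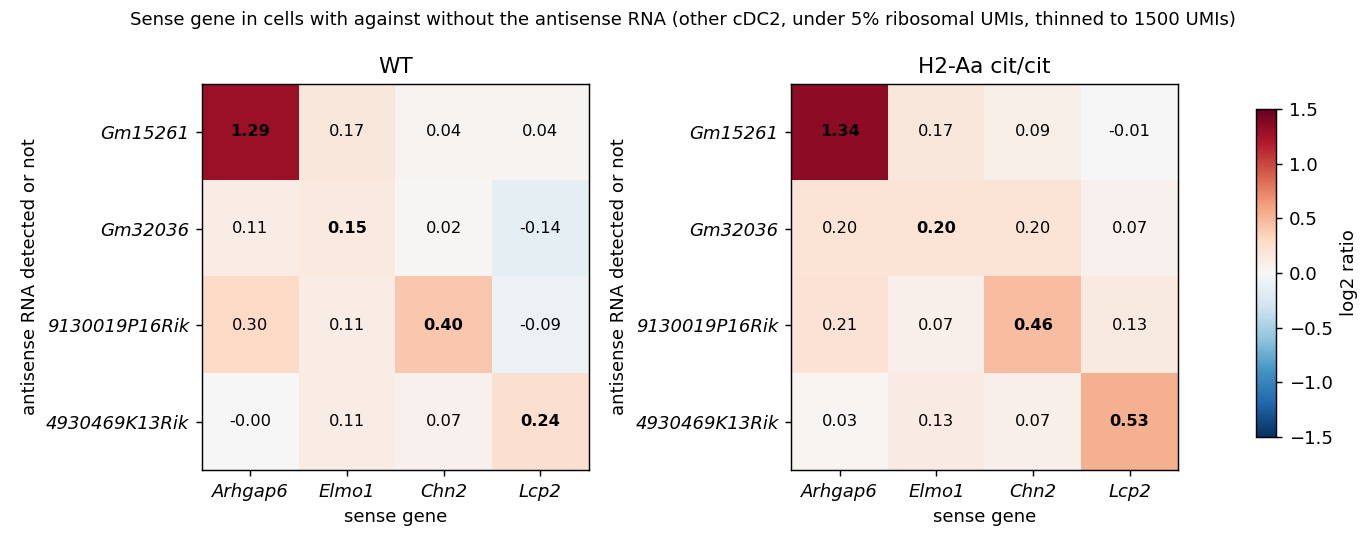
Log2 ratio of UMIs per cell of each sense gene (columns) between cells with and without each antisense RNA (rows), for other cDC2 under 5% ribosomal UMIs thinned to 1500 UMIs, WT left and H2-Aa cit/cit right, own pairs in bold. The cell for Gm15261 and Arhgap6 is the strongest in both maps (1.29 and 1.34), and that for Gm32036 and Elmo1 is the weakest of the own pairs (0.15 and 0.20).

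Likeness of pattern was measured as Pearson's r of log2(CPM + 5) over 84 units, each one class in one ribosomal band of one library with at least 20 cells, among 6816 genes of at least 20 CPM. These units share the 2 libraries and differ in depth, so the coefficients are descriptions. Malat1 was most like Sppl3 (0.95), Kdm6a (0.94) and Eml6 (0.93), and Neat1 most like Eml6 (0.92), Csnk1g1 (0.92) and Malat1 (0.92). Gm15261 was most like its sense gene Arhgap6 (0.91), then Gm32036 (0.90) and Bbs9 (0.90). For Gm32036 the nearest were Gm47664, Gm15261 and Gm49742 (each 0.90), with Elmo1 at 0.89. 9130019P16Rik was nearest to Gm15261 (0.87), Gm49742 (0.87) and Gm32036 (0.86), and 4930469K13Rik to Gm13708 (0.84), Pik3cd (0.83) and Gm44686 (0.81). Their sense genes were further off, Chn2 at 0.79 with 21 genes nearer and Lcp2 at 0.67 with 380 nearer. Malat1 with each of the 4 antisense RNAs gave only 0.49 to 0.62, so the members fell into a Malat1 and Neat1 pair (0.92) and an antisense group (0.77 to 0.90).

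Between genotypes, the members were lower or little different in H2-Aa cit/cit over all cells. Malat1 was at 35024 CPM in WT against 24166 in H2-Aa cit/cit, a log2 ratio of -0.54 (-0.54 to -0.53), and Neat1 at 279 and 183 CPM, a ratio of -0.61 (-0.65 to -0.58). Gm15261 was at 136 and 118 CPM (-0.21, -0.26 to -0.17) and 9130019P16Rik at 21.1 and 14.1 CPM (-0.58, -0.70 to -0.45). Gm32036 (-0.05, -0.12 to 0.01) and 4930469K13Rik (-0.09, -0.19 to 0.02) had intervals that include 0. None of the members was 2-fold apart, where 1.16% of 3953 genes were at least 2-fold higher and 3.21% at least 2-fold lower in H2-Aa cit/cit, and the median gene was at -0.02.

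The libraries differed in make-up. Mature DC, taken whole the class highest in Malat1 and Neat1, were 28.4% of WT against 12.7% of H2-Aa cit/cit cells. Other cDC2 were 39.6% and 54.4%, and low cells 45.9% and 30.8%. When both libraries were given the same mix of classes and ribosomal bands, using 96.0% and 96.7% of their cells, Malat1 had a log2 ratio of -0.04, Neat1 -0.09, Gm15261 0.073, Gm32036 0.20, 9130019P16Rik -0.27 and 4930469K13Rik 0.068. The ratios of Malat1 and Neat1 were smaller at equal mix, Gm15261 changed sign, and 9130019P16Rik was the most lowered member. Units were weighted here by cells and not by UMIs as in the all-cell ratio, and the part of this weighting was not tested.

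Inside other cDC2 all 6 members were lower in H2-Aa cit/cit, from -0.20 for Malat1 and -0.68 (-0.74 to -0.63) for Gm15261 to -1.001 (-1.16 to -0.84) for 9130019P16Rik. Low cells were 44.8% of this class in WT against 27.0% in H2-Aa cit/cit. Ratios of all genes inside this class are not given, so the shared direction is not read as particular to the members. With low and high cells taken apart, Gm15261 was at -0.20 (-0.28 to -0.13) and -0.18 (-0.27 to -0.09), Malat1 at 0.02 and -0.14, and Gm32036 at -0.00 (-0.12 to 0.12) and -0.05 (-0.17 to 0.08). 9130019P16Rik was still lower in both, at -0.48 (-0.69 to -0.26) and -0.58 (-0.81 to -0.33), from 88.9 to 63.9 CPM in low cells and from 16.7 to 11.2 in high cells.

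Other classes went other ways. In mature DC Malat1 (-0.38) and Neat1 (-0.44) were lower in H2-Aa cit/cit and Gm15261 was higher, at 57.9 against 47.9 CPM (0.27, 0.11 to 0.44), also in low (0.27) and in high cells (0.73) taken apart. Malat1 was at 62780 CPM in low H2-Aa cit/cit mature DC against 70718 in WT, and at 35588 against 45202 in high ones. Neat1 was at 548 against 645 CPM in the low and at 282 against 348 in the high ones. In cDC1 Neat1 was higher, at 206 against 129 CPM (0.67, 0.55 to 0.79). In its high cells alone Neat1 was at 203 against 114 CPM (0.84, 0.70 to 0.97), while Malat1 there differed by 0.15. With 1 pool of mice per genotype, a difference of genotype, of pool and of preparation cannot be told apart.

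**Figure D5:**
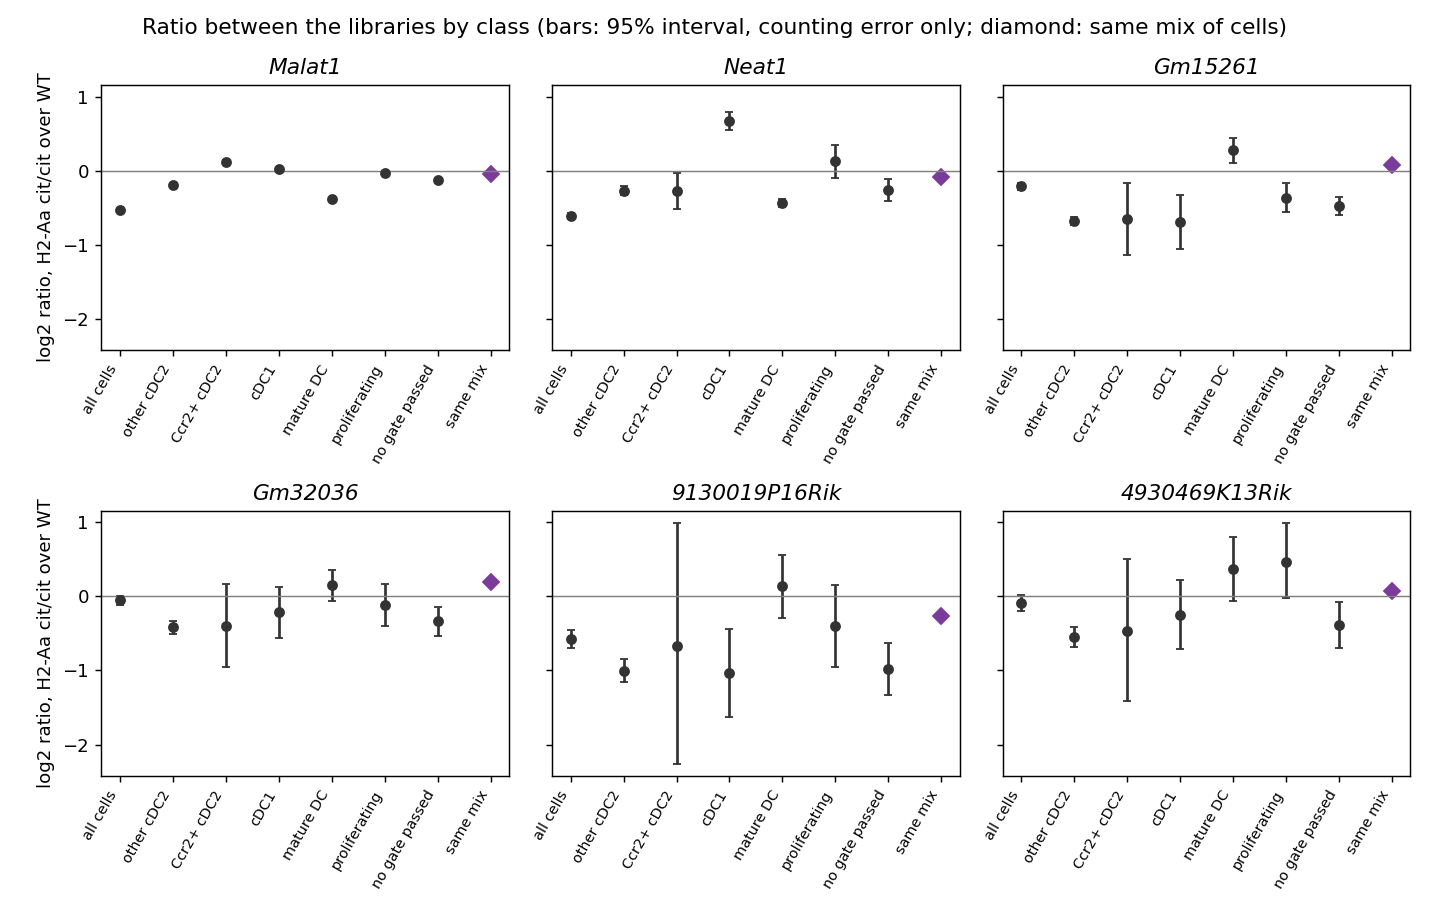
Log2 ratio of each gene, H2-Aa cit/cit over WT, points for all cells and for each class with 95% conditional binomial bars, and a diamond for all cells at the same mix of classes and ribosomal bands. The all-cell points of Malat1 (-0.54) and Neat1 (-0.61) lie well below their diamonds (-0.04 and -0.09), and the cDC1 point of Neat1 (0.67) lies on the other side of 0 from its mature DC point (-0.44).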

How the data were processed

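The authors prepared 10x Chromium 3′ libraries from sorted cells, sequenced both on one NovaSeq S4 lane and, per the labels, processed reads with Cell Ranger 5.0.1 on mm10. The deposited tables hold raw UMI counts per gene and called cell. Intron, strand and annotation settings are not given in the sources used here.

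Every called cell was kept. Ribosomal protein genes (91, Rpl and Rps without Rps6k) gave the ribosomal share. A class needed at least 3 of its markers and at least 10 marker UMIs per 10000 (cDC2: 2 markers and 5 UMIs). Doublets were not called. Cells that passed gates of more than 1 lineage were set apart, with cDC1 and mature DC together counted as 1. The cDC2 gate was left out of that count. A cDC2 cell that also passed the gate of another named class took that label. The B, T, plasma and erythroid gates set no class, so cDC2 classes can hold cells that also passed such a gate. Levels are summed UMIs per 1000000, and with 1 library per genotype no test was run. A count of 0 allows up to 3 UMIs. The ratio intervals were tested on simulated Poisson counts, the model they assume. Such counts hold no variation between cells, mice or preparations. Ratios of 2-fold were counted among genes of at least 50 CPM in either group. The named genes are the 6 members in each class and band, their 3 nearest genes by pattern, and examples of 7 lists. Members, lists and gates were chosen with earlier results of these data known, and gate thresholds after marker counts had been seen. Alternatives changed the denominator, cut, depth, weighting of cells, cell filters, scaling and mix of cells. Python 3.11.15, numpy 2.4.6, scipy 1.17.1, pandas 2.3.3 and matplotlib 3.10.9 were used.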

Additional observations from a re-analysis of the deposited data

Results flagged for a closer look

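The genotype ratios of 3 members went in opposite directions in different classes of at least 100 cells in each library, 6 classes in all. These differences between classes were not tested, since there is 1 library per genotype. Malat1 had a log2 ratio of H2-Aa cit/cit to WT of 0.12 in Ccr2+ cDC2 and -0.38 in mature DC, which are 0.50 apart. Neat1 had 0.67 in cDC1 and -0.44 in mature DC, which are 1.11 apart. Gm15261 had 0.27 in mature DC and -0.95 (-1.92 to -0.06) in pDC, which are 1.23 apart, and the pDC value rests on 38 WT and 15 H2-Aa cit/cit UMIs.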

How the results depend on the processing

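No paired analysis was possible because each genotype has 1 library. The median log2 ratio of the 6 members between low and high cells was 1.75 (WT) and 1.92 (H2-Aa cit/cit). It was 1.54 and 1.68 over UMIs outside ribosomal protein genes, 3.05 and 3.00 for the lowest against the highest 25% of cells, 1.59 and 1.64 at a cut of 15%, 3.62 and 2.45 among cells of 1500 to 5000 UMIs, and 2.15 and 2.17 as a mean over cells. Further alternatives left out cells over 10% mitochondrial UMIs or cells of more than 1 lineage. Another, chosen after seeing the data, left out cells of 30% or more ribosomal UMIs. The median was then 1.68 to 1.75 in WT and 1.89 to 1.93 in H2-Aa cit/cit. No counting interval was computed for this median. Each member was above 0 in all of these, 96 of 96 values, from 0.67 to 4.00. The members were picked on this contrast, so nothing is read from that count. The median ratio of H2-Aa cit/cit to WT was -0.37. It was -0.31 over non-ribosomal UMIs, -0.30 with median-of-ratios scaling, -0.20 as a mean over cells and 0.013 at the same mix of cells, where Gm15261 also changed sign (0.073). Of 6 alternatives, Malat1, Neat1 and 9130019P16Rik were below 0 in 6, Gm15261 and 4930469K13Rik in 5 and Gm32036 in 2. With no minimum level, 28.1% of WT against 26.8% of H2-Aa cit/cit genes were at least 2-fold higher in low cells, and 9.41% were at least 2-fold higher and 16.9% lower in H2-Aa cit/cit. Depth limits the 9130019P16Rik and 4930469K13Rik values in pDC and cDC1, which rest on few UMIs.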
